A study of Mus musculus with 2 samples.

Results

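The 8 genes described here make, load and switch on MHC class II molecules: H2-Aa, H2-Ab1, H2-Eb1, H2-DMa, H2-DMb1, H2-DMb2, Cd74 and Ciita. They were chosen by symbol, without reference to their values, and all 8 were found among the 31053 genes counted in both libraries. The study sorted innate lymphoid cells (ILCs), lymphocytes without rearranged antigen receptors, from the lamina propria of the small intestine of C57BL/6 mice. Cells were sorted as live, CD45-positive, lineage-negative, CD3-negative, TCRβ-negative, CD90.2-positive and CD127-positive. One group was wild type (WT) and the other Zfp36-/- (named TTP-KO in the labels, Zfp36_KO here), which lacks the RNA-binding protein tristetraprolin. Cells of 4 mice were pooled per genotype before droplet capture, so each genotype is 1 library and mice cannot be separated. The labels name no agent and no age, and they do not say which part of Zfp36 is altered.

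MHC class II molecules are pairs of an alpha and a beta chain that carry peptides to the cell surface, where CD4 T cells read them. The invariant chain, Cd74, holds new pairs and blocks the peptide groove, and H2-DM then removes its last fragment and helps peptides to bind. Ciita, the transactivator, is recruited to a shared promoter module rather than to DNA directly, and it sets whether the genes are on. Dendritic cells, macrophages and B cells are the classical users of this pathway, and in the gut CCR6-positive group 3 ILCs (ILC3) are known to carry class II molecules as well.

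The members lie on several chromosomes of mm10, by the GENCODE M21 annotation. H2-DMa (34119541 to 34139101), H2-DMb2 (34143307 to 34151555), H2-DMb1 (34153072 to 34160230), H2-Ab1 (34257689 to 34269419), H2-Aa (34282744 to 34287823) and H2-Eb1 (34305867 to 34316674) follow each other on chromosome 17, with H2-Aa alone on the minus strand. Ciita lies on chromosome 16 (10480059 to 10528418, plus strand), and Cd74 is unlinked to both. All are protein-coding genes. Genes on the other strand overlap Ciita (Dexi), H2-DMa (Brd2) and H2-Eb1 (Gm20513). Each of the 3 has its own row in the table. H2-DMb1 and H2-DMb2 are related copies: of 278 base pairs aligned between their last 300 transcript bases 208 (74.8%) are identical, and 25.2% of the 50-base windows of H2-DMb2 are also in H2-DMb1. A read lying wholly in a shared stretch cannot be assigned, so the split between those 2 genes may be uncertain. How many reads do so was not examined.

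The shared promoter module can be read in the RefSeq promoters of 4 members, printed here as a description of the genes. Whether it bears on the levels that follow was not tested. Each line runs 5′ to 3′ along the gene's own strand (GRCm38.p6). The capitals mark, first, CTNNNAAC, which lies in what is known as the X box, the site of the RFX complex, and second, TGATTGG, the Y box, the site of NF-Y.
H2-Aa, chr17:34287861-34287913, minus strand: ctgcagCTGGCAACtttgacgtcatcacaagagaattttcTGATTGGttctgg
H2-Eb1, chr17:34305767-34305818, plus strand: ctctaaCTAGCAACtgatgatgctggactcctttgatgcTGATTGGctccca
H2-DMb1, chr17:34153088-34153140, plus strand: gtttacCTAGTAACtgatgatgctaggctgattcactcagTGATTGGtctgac
H2-DMb2, chr17:34145117-34145169, plus strand: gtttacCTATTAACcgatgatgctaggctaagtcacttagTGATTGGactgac

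The first motif begins between 84 bases (H2-Aa) and 126 bases (H2-DMb2) before the RefSeq start that its window is built on. For H2-DMb1 and H2-DMb2 that start lies inside the GENCODE gene bounds given above, and so do the printed stretches. The motifs are 26 bases apart in H2-Aa, H2-DMb1 and H2-DMb2 and 25 bases apart in H2-Eb1. The letters were taken from these sequences after looking at them, and neither motif overlaps the other. Counting both strands, CTNNNAAC is found in 41.1% of the 32851 promoter windows of 300 bases and TGATTGG in 7.82%. Both in this order, 20 to 30 bases apart, are found in 31 windows (0.0944%) of 28 genes, among them the 4 members and H2-Ob, a further class II gene. The 2 windows of H2-DMa do not hold the pair, and H2-Ab1, Cd74 and Ciita have no entry in the table. A match is a description of letters, not a measured binding site.

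Cells were assigned to classes by summed UMIs (unique molecular identifiers, each standing for 1 captured transcript) of marker genes, none of which is a member. After filtering, 3360 WT and 3334 Zfp36_KO cells remained, with medians of 5292.5 and 5336.5 UMIs, and 403 and 509 of them fell in no class. Against the sort, 1218 WT cells and 88 Zfp36_KO cells carried T cell transcripts, and 120 and 174 carried B or plasma cell transcripts. Myeloid cells, which the sort should also remove, were present in unequal numbers: 36 WT and 208 Zfp36_KO dendritic cells, and 51 WT and 172 Zfp36_KO macrophages. The libraries share 2 barcodes. The Zfp36_KO library held 448 cells (13.4%) with Y-linked transcripts and none of Xist, and the WT library held 0, so the sexes were not balanced between the genotypes. Zfp36 itself was lower in the Zfp36_KO library in all 7 classes described, by a log2 ratio from -2.24 in CCR6-positive ILC3 to -0.78 in dendritic cells. Whether the counted 3′ end lies in the altered part of the gene is not given in the sources used here.

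The gates gave 675 WT and 1236 Zfp36_KO ILC2, 293 and 209 CCR6-positive ILC3, and 159 and 315 ILC3 with neither Ccr6 nor Ncr1, called CCR6-negative here. They gave 261 and 266 NCR-positive ILC3 (Ncr1 encodes NKp46) and 144 and 157 ILC1/NK cells. The cut at 1 Ccr6 UMI is thin: 113 of the WT and 115 of the Zfp36_KO CCR6-positive cells had exactly 1. The ILC2 list had 2448 and 2638 UMIs per 1e6 (CPM) in ILC2, and at most 405.8 in the other 6 classes. ILC2 were gated on this list, so that gap follows largely from the gate. Ncr1 was not particular to NCR-positive ILC3 (647 CPM in WT and 596 CPM in Zfp36_KO). It had 964 and 1210 CPM in ILC1/NK cells, whose own list includes it. The dendritic gate held different mixtures. Plet1 was detected in 20 of 36 WT and 183 of 208 Zfp36_KO dendritic cells, while Xcr1 was detected in 13 WT and 13 Zfp36_KO cells.

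Levels are given as CPM, the UMIs of a gene divided by the UMIs of all genes in the same cells and scaled to 1e6, summed over the cells of a class and library. One UMI counts 1 transcript whatever its length, so levels may be compared between genes. With 1 library per genotype there is no test, and every interval is an exact 95% interval that covers counting error only, not differences between mice, pools or captures. In bulk sums such as these, fewer positive cells and less RNA per cell cannot be told apart.

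Summed over the 8 genes, the level differed in opposite directions in different lymphoid classes. In ILC2 their summed level was 295 CPM (279 to 311) in WT and 654 CPM (636 to 673) in Zfp36_KO, 2.22-fold higher. The ILC2 difference was smaller when the called doublets, 37 cells of the WT and 5 of the Zfp36_KO library, were kept. CCR6-positive ILC3 started far above, at 4364 CPM (4251 to 4480), and stood at 1862 CPM (1767 to 1960) in Zfp36_KO, a log2 ratio of -1.23 (-1.31 to -1.15). CCR6-negative ILC3 were also lower, 1453 against 927 CPM. NCR-positive ILC3 (242 and 527 CPM) and ILC1/NK cells (325 and 1222 CPM) were higher in Zfp36_KO, but a single cell supplied 50% and 30% of those Zfp36_KO sums. Dendritic cells and macrophages carried the highest levels in both libraries and were lower in Zfp36_KO, 51844 against 39553 CPM and 45199 against 35012 CPM. Over all kept cells the sum was nonetheless higher in Zfp36_KO, 4225 against 11930 CPM, in the library that held more dendritic cells and macrophages.

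**Figure D1:**
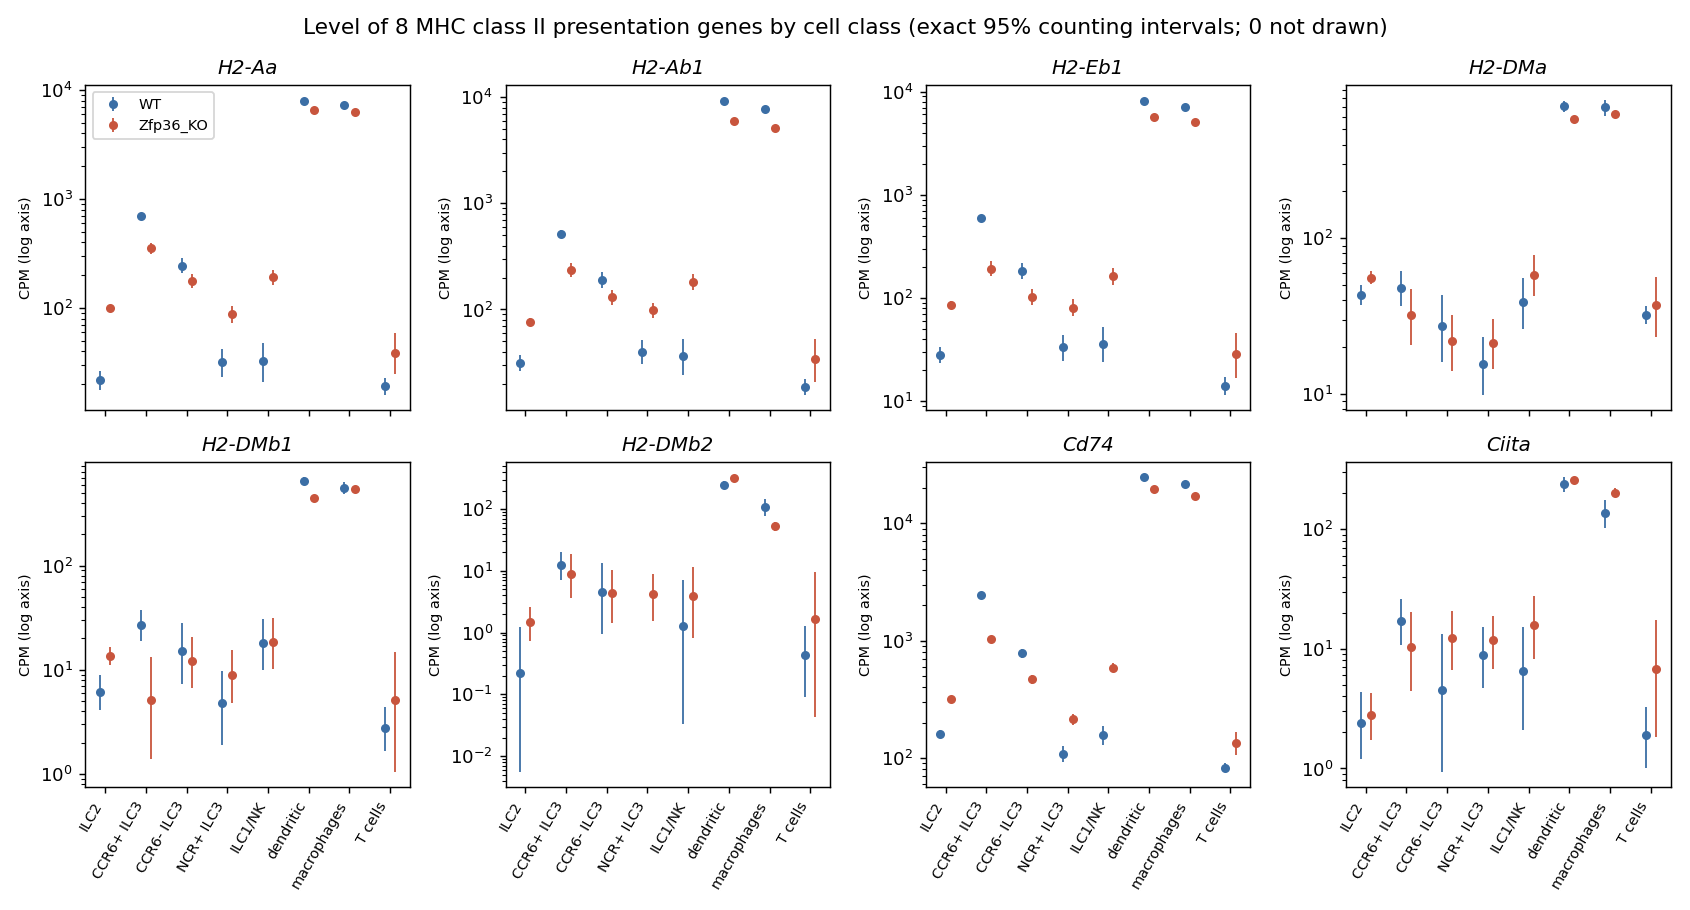
Level of each member (CPM, log axis) in the 7 classes and in T cells, WT in blue and Zfp36_KO in red. Points are class sums over 1 library each, bars are exact 95% counting intervals, and a level of 0 is not drawn. The 3 classical chains and Cd74 share one pattern, with myeloid cells highest, then CCR6-positive ILC3. H2-DMa lies between 15.6 and 58.4 CPM in the lymphoid classes drawn.

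The order of the summed levels, with B and plasma cells and T cells added for reference, changed between the libraries. WT ran dendritic cells, macrophages, CCR6-positive ILC3, B and plasma cells (2975 CPM), CCR6-negative ILC3, ILC1/NK, ILC2, NCR-positive ILC3 and T cells (172 CPM). The intervals of the neighbours ILC1/NK and ILC2 overlapped, and those of the other neighbours did not. These intervals treat UMIs as independent, although 1 cell held 24.6% of the WT NCR-positive sum. Without that cell the class had 183 CPM, close to T cells. In Zfp36_KO, B and plasma cells (2445 CPM) stood above CCR6-positive ILC3, and ILC1/NK above CCR6-negative ILC3. That last place rests on few cells: without cells holding C1qa or Plet1, ILC1/NK had 517 and CCR6-negative ILC3 939 CPM. ILC2 and NCR-positive ILC3 followed, and T cells (286 CPM) were again last in these sums. Without the richest cell, Zfp36_KO NCR-positive ILC3 had 266 CPM, below T cells. Of the Zfp36_KO T cell sum, 1 cell in turn held 31.4%. The order at this end is therefore not secure.

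Cd74, the invariant chain, was the most abundant member in every class. Its level in ILC2 was 161 CPM (150 to 173) in WT and 318 CPM (305 to 331) in Zfp36_KO, from 734 and 2372 UMIs, a log2 ratio of 0.98. In CCR6-positive ILC3 it was 2456 CPM (2371 to 2543) in WT and 1023 CPM (953 to 1097) in Zfp36_KO, a log2 ratio of -1.26. The lower of these values still lay above that of ILC2 in either library. CCR6-negative ILC3 had 781 and 467 CPM, with a log2 ratio of -0.74. For NCR-positive ILC3 the values were 108 and 214 CPM (log2 ratio 0.99) and for ILC1/NK cells 155 and 588 CPM (log2 ratio 1.92). Dendritic cells had 24617 and 19718 CPM and macrophages 21482 and 17120 CPM, so the WT library was the higher one in both.

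H2-Aa, the alpha chain of I-A, showed the largest ILC2 ratio among the members with enough counts. It had 99 UMIs (21.7 CPM, 17.7 to 26.5) in WT ILC2 and 747 UMIs (100.1 CPM) in Zfp36_KO ILC2, 4.6-fold higher. The WT value was close to that of WT T cells (19.1 CPM, 15.9 to 22.7), and the intervals overlap. The Zfp36_KO value lay above that of Zfp36_KO T cells (38.9 CPM, 24.7 to 58.4). CCR6-positive ILC3 went the other way, 698 against 354 CPM, and CCR6-negative ILC3 had 245 and 177 CPM. H2-Aa UMIs per 100 Cd74 UMIs in ILC2 were 13.5 in WT and 31.5 in Zfp36_KO, so the alpha chain and the invariant chain did not change in proportion there.

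H2-Ab1, the beta chain that pairs with H2-Aa, had 31.4 CPM in WT ILC2 and 76.9 CPM in Zfp36_KO ILC2, a log2 ratio of 1.29 (1.03 to 1.57). In CCR6-positive ILC3 it had 514 and 235 CPM, a log2 ratio of -1.13. H2-Eb1, the beta chain of I-E, had 28.1 and 86.0 CPM in ILC2, a log2 ratio of 1.61. Its ratio in CCR6-positive ILC3, 591 against 193 CPM or -1.61, was the lowest among the members with at least 50 UMIs there. C57BL/6 mice are known to lack a working alpha chain gene for I-E, so H2-Eb1 transcript is not expected to give surface protein. In dendritic cells the beta chains had lower ratios (H2-Ab1 -0.64, H2-Eb1 -0.51) than H2-Aa (-0.28), and in macrophages the values were -0.60, -0.49 and -0.23, with intervals of the beta chains apart from that of H2-Aa in each.

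The H2-DM subunits were scarce in lymphoid cells. H2-DMa, the alpha subunit, had 43.5 CPM (37.6 to 50) in WT ILC2 and 55.9 CPM (50.6 to 61.5) in Zfp36_KO ILC2, a log2 ratio of 0.36. Its level in T cells was lower, 32.3 CPM (28.2 to 36.8) in WT and 37.2 CPM (23.3 to 56.3) in Zfp36_KO. The intervals of ILC2 and T cells overlapped in Zfp36_KO only. The values for the other ILC classes lay between 15.6 and 58.4 CPM. H2-DMb1, a beta subunit, had 28 and 102 UMIs in ILC2 (6.15 and 13.7 CPM) and 35 and 4 UMIs in CCR6-positive ILC3 (27.2 and 5.15 CPM). H2-DMb2 had 1 and 11 UMIs in ILC2 and 16 and 7 in CCR6-positive ILC3. In the myeloid class sums the beta subunits did not follow each other. H2-DMb2 had a log2 ratio of 0.36 in dendritic cells and -1.03 in macrophages, against -0.56 and -0.01 for H2-DMb1. These sums mix kinds of cells in unequal parts. Among dendritic cells with a Plet1 UMI, H2-DMb2 had 331 CPM in WT and 333 CPM in Zfp36_KO. Those with Xcr1 or Clec9a and no Plet1 had 98.1 and 68.6 CPM. In the main macrophage cluster it had 45.9 and 33.4 CPM, from 14 and 72 UMIs. The split between these 2 genes, which may be uncertain as described above, touches those values.

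Ciita, the transactivator, was near the limit of detection in lymphoid cells and did not separate the libraries there. It had 11 and 21 UMIs in ILC2 (2.41 and 2.81 CPM), so the higher chain levels in Zfp36_KO ILC2 came without a detectable difference at this depth, the log2 interval running from -0.90 to 1.42. CCR6-positive ILC3 had 22 and 8 UMIs (17.1 and 10.3 CPM), CCR6-negative ILC3 3 and 14, NCR-positive ILC3 13 and 17, and ILC1/NK cells 5 and 12. Dendritic cells had 238 and 260 CPM, a log2 ratio of 0.12 (-0.09 to 0.35). Macrophages had 136 and 202 CPM, and with a log2 ratio of 0.57 (0.17 to 0.99) Ciita was the 1 member above 0 in them while the summed level was lower.

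**Figure D2:**
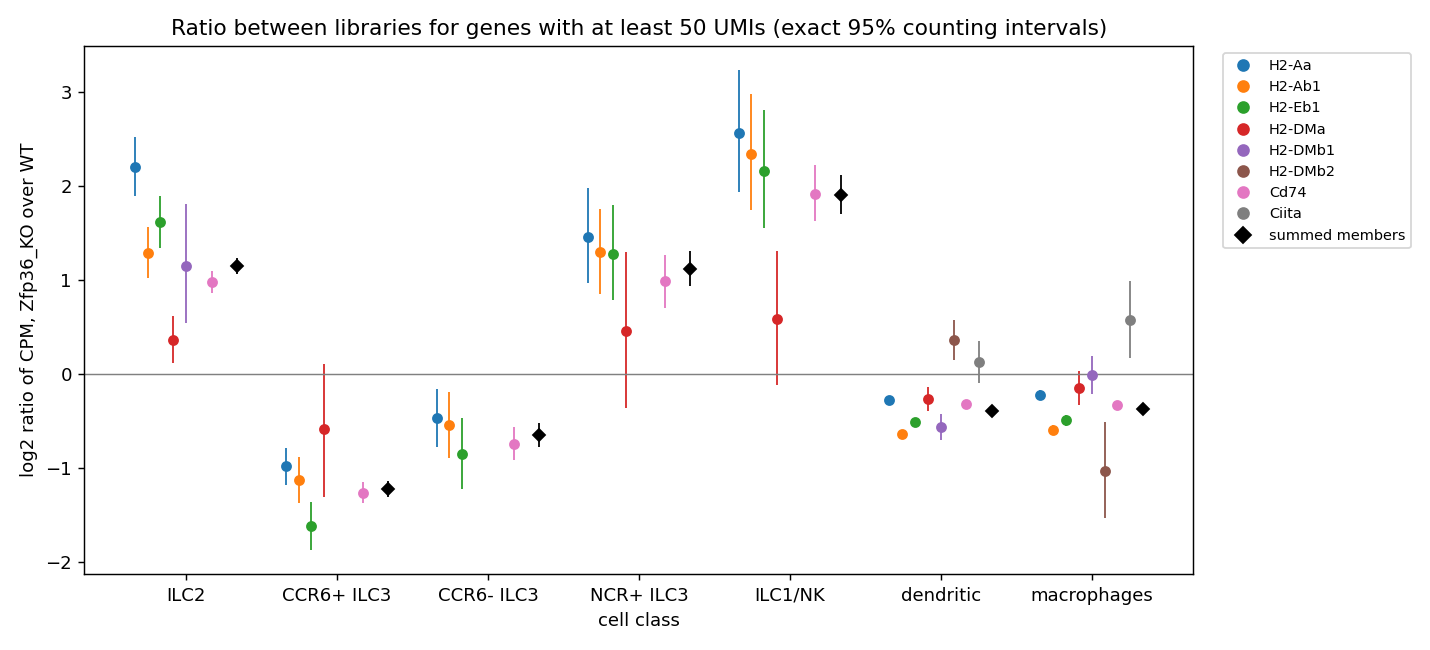
log2 ratio of CPM, Zfp36_KO over WT, for each member with at least 50 UMIs over both libraries in the class, and for the 8 members summed (black diamonds). Bars are exact 95% counting intervals. ILC2 points lie above 0, the points of both CCR6 classes lie below it, and myeloid sums lie slightly below it.

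These ratios were set against all genes with at least 50 UMIs in the same class. In ILC2, 4 of the 6 members tested were at least 2-fold higher in Zfp36_KO (2.92% of 9301 genes were) and 0 were at least 2-fold lower (0.925% of all). The median log2 ratio was 1.22 over those members and 0.17 over all genes. Cd74, at 0.98, fell just short of the 2-fold line. CCR6-positive ILC3 had 0 of 5 tested members at least 2-fold higher, with 3.97% of 6046 genes so, and 3 at least 2-fold lower, with 1.12% so. Their median was -1.13, against 0.17 for all genes. H2-Aa, at -0.98, was just outside.

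For CCR6-negative ILC3, none of the 4 tested members passed 2-fold in either direction, where 5.3% of 5657 genes were higher and 0.866% lower. Their median was -0.64. NCR-positive ILC3 had 3 of 5 members higher, beside 3.46% of 6885 genes, and 0 lower, beside 1.03%. Among ILC1/NK cells 4 of 5 were higher, beside 4.37% of 4649 genes, and 0 lower, beside 1.01%. Dendritic cells had 0 of 8 members higher (7.77% of 7893 genes) and 0 lower (2.45%), and macrophages 0 of 8 higher (7.91% of 6957 genes) and 1 lower (2.27%), which was H2-DMb2. The other myeloid members lay inside the 2-fold band. Medians over the 8 members were -0.30 and -0.28 against 0.17 and 0.15 for all genes.

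The share of cells with at least 1 UMI of any member gave the same picture for ILC2. Each cell was thinned to 2000 UMIs, so that depth could not set the share. In ILC2 the share was 27.6% (24.3 to 31.2) of 670 WT cells and 47.8% (45.0 to 50.7) of 1227 Zfp36_KO cells. T cells, which in mice make little or no class II, gave the background: 21.1% (18.8 to 23.5) of 1189 WT cells and 21.8% (13.7 to 32.0) of 87 Zfp36_KO cells. Without thinning, the shares were 53.6% and 71.7% in ILC2 (median depths 6211 and 5733 UMIs) and 39.5% and 47.7% in T cells (5136 and 6037.5 UMIs). WT ILC2 thus stood slightly above the background and Zfp36_KO ILC2 well above it. The Zfp36_KO T cell class is a less clean reference, since its cells carried 1272 CPM of the ILC2 marker list against 432 in WT T cells.

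The remaining lymphoid classes, thinned the same way, ranged between background and a clear majority of cells. CCR6-positive ILC3 had 75.6% and 68.0% positive cells, CCR6-negative ILC3 34.2% and 41.1%, NCR-positive ILC3 17.2% and 27.4% and ILC1/NK cells 33.6% and 44.0%. Before thinning these were 86.7% and 76.6%, 48.4% and 50.5%, 37.9% and 50%, and 50.7% and 70.1%. The CCR6-negative share was higher in Zfp36_KO although the CPM was lower, so no order is read from it. NCR-positive WT cells lay at or below the T cell background. All thinned dendritic cells and macrophages were positive.

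Class II UMIs were few in most ILC2, with none in 72.4% of WT and 52.2% of Zfp36_KO cells at 2000 UMIs. At 2000 UMIs per cell, 6.12% of WT and 19.7% of Zfp36_KO ILC2 held UMIs of at least 2 members, and 3.62% of WT and 6.90% of Zfp36_KO T cells did. Cells with 10 or more class II UMIs were rare in both, 0.896% and 1.55% of ILC2. The 5% of cells richest in the members held 48.3% of the class II UMIs in WT ILC2 and 37.9% in Zfp36_KO ILC2. Leaving those cells out moved the summed log2 ratio from 1.15 to 1.42, so the higher level in Zfp36_KO ILC2 was not carried by a few rich cells.

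CCR6-positive ILC3 of Zfp36_KO held fewer cells with many class II UMIs. At 2000 UMIs, 80 of 291 WT cells (27.5%) and 16 of 203 Zfp36_KO cells (7.88%) held 10 or more class II UMIs. The share with Cd74 was 66.0% and 48.3%, that with H2-Aa 42.6% and 29.1%, and that with H2-Eb1 33.0% and 14.8%. H2-Ab1 differed least, 40.2% and 36%, with overlapping intervals. All 4 of these transcripts were found together in 97 of 293 WT cells and 28 of 209 Zfp36_KO cells at full depth. Without the 5% of cells richest in the members the summed log2 ratio was -1.61 in place of -1.23, so the lower level was not confined to the richest cells.

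**Figure D3:**
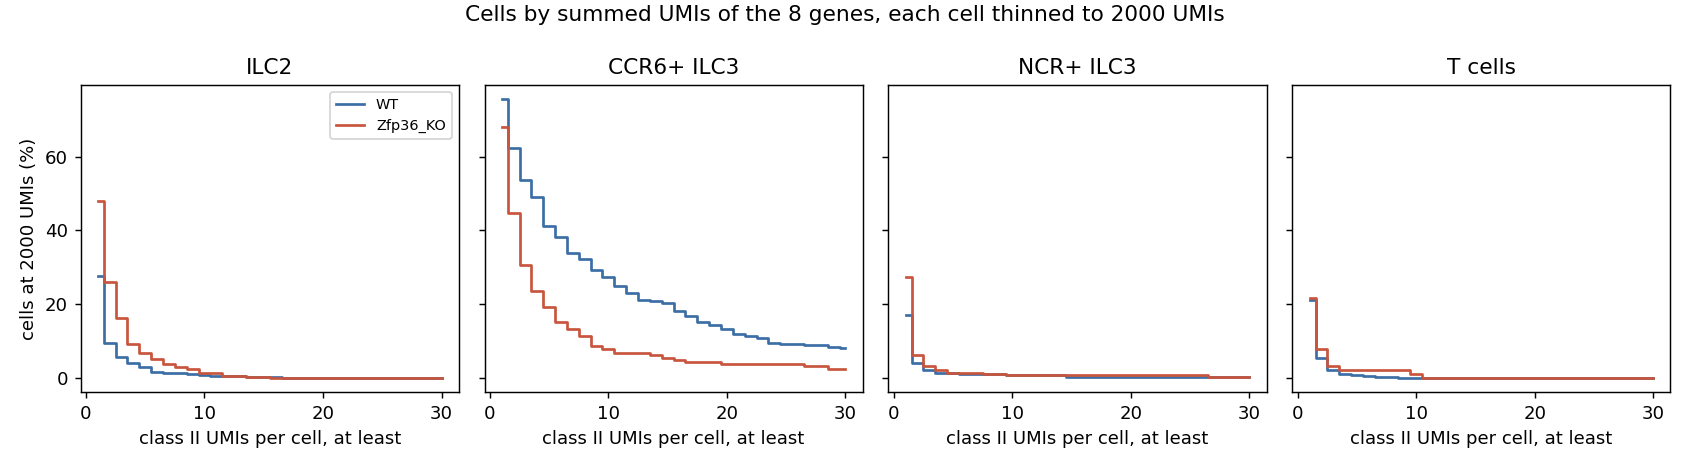
Share of cells (%) with at least the number of summed class II UMIs on the x axis, each cell thinned to 2000 UMIs, in 4 classes. The curve of Zfp36_KO ILC2 starts at 47.8% and lies above that of WT up to about 10 UMIs, and that of CCR6-positive ILC3 lies below WT along the whole axis.

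H2-Ab1 was often found without the other chains. Among ILC1/NK cells it was detected in 19 of 144 WT and 47 of 157 Zfp36_KO cells, while H2-Aa was detected in 13 and 18. Of those H2-Ab1-positive cells, 6 in WT (31.6%, 12.6 to 56.6) and 29 in Zfp36_KO (61.7%, 46.4 to 75.5) had no UMI of H2-Aa, H2-Eb1 or Cd74. H2-Eb1 was alone in this sense in 41.2% and 22.7% of the ILC1/NK cells that held it, Cd74 in 43.3% and 47.2%, and H2-Aa in 15.4% and 5.56%. NCR-positive ILC3 had H2-Ab1 in 28 and 55 cells, H2-Aa in 15 and 22, and H2-Eb1 in 17 and 22. Thinned to 2000 UMIs, the H2-Ab1 share of NCR-positive ILC3 was 2.68% (1.08 to 5.45) in WT and 10.5% (7.11 to 14.9) in Zfp36_KO, whereas H2-Aa gave 3.07% and 3.01%. This pattern was noticed in the values. Being found alone was not particular to H2-Ab1 or to these classes. In NCR-positive ILC3, H2-Ab1 was alone in 53.6% (WT) and 52.7% (Zfp36_KO) of the cells that held it, and Cd74 in 66.7% and 52.6%. In WT T cells, H2-Ab1 was alone in 40.2% and H2-Aa in 35.0% of such cells. In ILC2, 33.0% of the H2-Ab1-positive WT cells and 20.4% of the Zfp36_KO cells had H2-Ab1 alone, and Cd74 was alone more often, in 58.2% and 34.6% of the cells that held it.

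The ILC2 difference was found in most subdivisions. Zfp36_KO ILC2 with a Gzma UMI (412 cells) had a summed level of 805 CPM and those without (824 cells) 572 CPM, while WT ILC2 with a Gzma UMI (14 cells) had 492 CPM (369 to 642) and those without 290 CPM. Of the unsupervised clusters, cluster 0 had 323 and 681 CPM and cluster 5 had 308 and 795 CPM. Cluster 6 was the exception, with 152 CPM (129 to 179) in 149 WT cells and 121 CPM (101 to 144) in 201 Zfp36_KO cells. Zfp36_KO ILC2 with Xist and no Y-linked UMI had 673 CPM, and those with Y-linked UMIs and no Xist had 555 CPM (194 cells). Both were above the WT class, of whose 675 cells 671 were of the first kind.

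CCR6-positive ILC3 were lower in each subdivision with a counterpart in both libraries. Cells with 1 Ccr6 UMI had 3429 CPM in WT and 1933 CPM in Zfp36_KO, and cells with 2 or more had 4893 and 1786 CPM. Cluster 2 had 4190 and 1854 CPM and cluster 3 had 4516 and 1874 CPM. Among Zfp36_KO cells, the 25 with Y-linked UMIs and no Xist had 1181 CPM and those of the other kind 2088 CPM.

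CCR6-negative ILC3 held cells of several clusters, and the level differed in 1 of the 3 main ones. Clusters 2 and 3 hold most CCR6-positive ILC3 as well, 252 and 249 cells beside 208 and 171 CCR6-negative ones over both libraries. Cluster 2 had 2895 CPM in 39 WT cells and 788 CPM in 169 Zfp36_KO cells. Cluster 3 had 1812 and 1791 CPM, and cluster 1, which holds most NCR-positive ILC3, had 111 and 95.3 CPM. In NCR-positive ILC3 the main cluster, cluster 1, had the same level in both libraries, 131 CPM (112 to 153) in 220 WT cells and 136 CPM (115 to 158) in 211 Zfp36_KO cells. Cluster 3, with 21 cells in each library, had 1734 and 4682 CPM, but 1 Zfp36_KO cell held 381 of the 507 class II UMIs there. Without that cell the Zfp36_KO level was 1340.5 CPM (1117 to 1596), below the full WT value, and without the richest WT cell as well the WT level was 927 CPM (749 to 1135). Zfp36_KO NCR-positive cells with Y-linked UMIs and no Xist (39 cells) had 210 CPM (154 to 280), no higher than WT, and those of the other kind 615 CPM. Without the richest cell, the summed log2 ratio of NCR-positive ILC3 was 0.54 in place of 1.12, and in ILC1/NK cells it was 1.68 in place of 1.91. Clusters in place of gates gave 0.25 and 0.48 for these classes.

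Dendritic cells were compared within marker groups because the gates held different mixtures. Cells with a Plet1 UMI had a summed level of 53441 CPM in WT (20 cells) and 40319 CPM in Zfp36_KO (183 cells). Plet1 itself had 435 CPM in that WT group and 1268 CPM in that Zfp36_KO group, so the 2 are not matched in Plet1. Cells with Xcr1 or Clec9a and no Plet1 had 48283 CPM (13 cells) and 38186 CPM (12 cells). The lower level of the Zfp36_KO library was therefore present in both groups. Macrophages had median depths of 6471 and 12395.5 UMIs, and in their main cluster, cluster 9, the level was 50374 and 34521 CPM. Without cells holding markers of other classes, 12 WT and 23 Zfp36_KO macrophages remained and the summed log2 ratio turned to 0.20. C1qa, a complement gene used in their gate, was also lower there, 2645 against 1724 CPM, and its part in the result was not tested.

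Free RNA from lysed myeloid cells could bring class II transcripts into any droplet, so C1qa, made by macrophages, and Plet1, made by dendritic cells of this tissue, were counted in the lymphoid classes. ILC2 held 9 C1qa UMIs in WT and 11 in Zfp36_KO, and 0 and 6 Plet1 UMIs. CCR6-positive ILC3 held 5 and 5 C1qa UMIs and 0 and 0 Plet1 UMIs, with upper 95% limits of 2.87 and 4.75 CPM. C1qa in ILC2 was thus at 1.98 CPM in WT and 1.47 CPM in Zfp36_KO, a log2 ratio of -0.42 (-1.83 to 1.03). So few UMIs do not settle its direction.

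A single source keeps its genes in 1 ratio in every class. Macrophages held 8.12 Cd74 UMIs per C1qa UMI in WT and 9.93 in Zfp36_KO. The ratios were 81.6 and 216 in ILC2, 632 and 159 in CCR6-positive ILC3, 103 and 266.5 in CCR6-negative ILC3, 19.9 and 61.8 in NCR-positive ILC3 and 17.1 and 221.5 in ILC1/NK cells. T cells of the WT library had 13.7, the nearest to macrophages, and those of the Zfp36_KO library 79.0, from 1 C1qa UMI. For H2-Aa and Plet1, dendritic cells had 30.3 and 5.78 and Zfp36_KO ILC2 had 124.5.

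From these ratios the level that macrophage and dendritic RNA would bring was computed for each class and library. It came to 33.8 CPM in WT ILC2, 11.5% of the level measured, and 57.9 CPM in Zfp36_KO ILC2, 8.84%. With both markers set to their upper 95% limits it was 224 and 114 CPM, below the measured 295 and 654 CPM. H2-Aa alone was less clear in WT ILC2. Its computed level was 25.3% of that measured, and its upper limit of 35.0 CPM lay above the measured 21.7 CPM. In Zfp36_KO ILC2 that limit was 19.7 CPM, below the measured 100.1 CPM. CCR6-positive ILC3 had 1.52% in WT and 7.02% in Zfp36_KO, and CCR6-negative ILC3 8.90% and 7.12%. The share was larger in NCR-positive ILC3, 38.3% and 27.0%, and in ILC1/NK cells, 47.7% and 15.8%, and in the WT library of both the upper limit lay above the measured level. In T cells it was 93.3% in WT and 32.6% in Zfp36_KO. The computed 93.2 CPM of Zfp36_KO T cells thus fell short of the measured 286 CPM, although its upper limit of 519 CPM did not. Whether the computed levels fall short in the ILC classes as well was not tested. The limits cover the C1qa and Plet1 counts only, not the ratios applied to them. Per Plet1 UMI, dendritic cells held 197 class II UMIs in WT and 34.8 in Zfp36_KO.

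**Figure D4:**
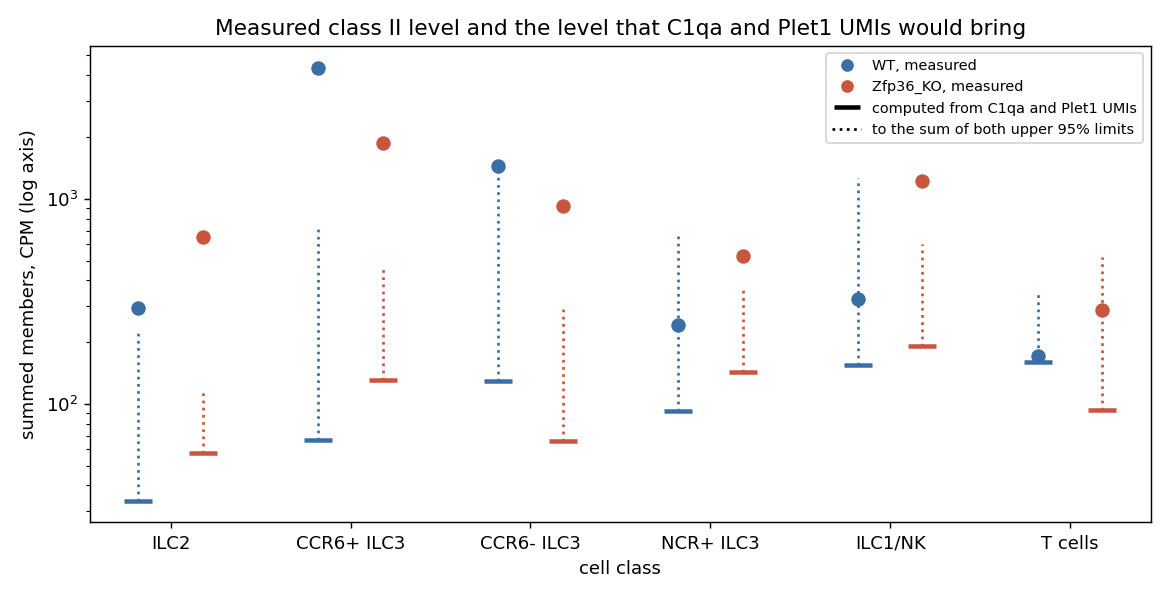
Summed level of the 8 members measured in each lymphoid class (points, CPM on a log axis) and the level computed from the C1qa and Plet1 UMIs of the same cells (bars), with dotted lines up to the sum of both upper 95% limits. ILC2 and CCR6-positive ILC3 lie above their lines in both libraries, while WT NCR-positive ILC3, WT ILC1/NK cells and the T cells of both libraries lie within theirs.

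Leaving out every cell with a C1qa or Plet1 UMI changed little in ILC2 (288 and 652 CPM), CCR6-positive ILC3 (4422 and 1882 CPM), CCR6-negative ILC3 (1362 and 939 CPM) and NCR-positive ILC3 (225 and 530 CPM). In ILC1/NK cells it moved the Zfp36_KO level from 1222 to 517 CPM, with 4 of 157 cells left out. One of these was the richest cell, with 276 class II UMIs and 1 Plet1 UMI, and without it alone the level was 872 CPM. A stricter choice kept only cells without any macrophage, dendritic, B or plasma cell or epithelial marker, such as Jchain and Cd79a. ILC2 then had 290 and 571 CPM and CCR6-positive ILC3 3829 and 919 CPM. NCR-positive ILC3 turned, to 208 CPM in WT and 141 CPM in Zfp36_KO, and so did CCR6-negative ILC3, to 762 and 872 CPM.

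Other genes of the pathway were read from a list of 37, of which 34 were in the table. Few of them moved with the members. ILC2 had 2 of 28 tested genes at least 2-fold higher and 1 lower, with a median log2 ratio of 0.04, CCR6-positive ILC3 2 and 0 of 22 (median 0.03), CCR6-negative ILC3 2 and 2 of 21 (0.08), NCR-positive ILC3 1 and 1 of 22 (0.07). ILC1/NK cells had 3 and 0 of 17 (0.02), dendritic cells 2 and 2 of 31 (0.18) and macrophages 1 and 1 of 30 (0.11). These shares stand beside the background percentages given above for each class.

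Irf1, an interferon-induced factor, had log2 ratios of 1.15 in CCR6-positive and 1.23 in CCR6-negative ILC3, and 0.01 in ILC2. Rfx5, a subunit of the X box complex, had 0.51 in ILC2.

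Cd83, which stabilises surface class II by opposing its ubiquitination, was lower in 6 of the 7 classes. Its log2 ratio was -2.05 in ILC2 (28.8 against 6.97 CPM), -0.97 in CCR6-positive ILC3, -1.57 in CCR6-negative ILC3, -2.50 in NCR-positive ILC3, -1.43 in dendritic cells and -1.21 in macrophages. ILC1/NK cells were the exception at 2.29, from 9 and 43 UMIs. Among proteases, Lgmn, a lysosomal endopeptidase, had 1.05 in ILC2, and Ctsh, an aminopeptidase, 1.05 in NCR-positive ILC3. Ctss, which cleaves the invariant chain, had -0.02 in ILC2, -0.14 in CCR6-positive, 0.31 in CCR6-negative and 0.47 in NCR-positive ILC3. H2-Oa, a subunit of the H2-DM inhibitor, had 0.09 in ILC2 and -0.64 in CCR6-positive ILC3. Cxcr4, a chemokine receptor that partners Cd74, had -1.63 in CCR6-negative ILC3.

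The members resembled each other over the 14 points of 7 classes in 2 libraries, with Pearson r of log2(CPM + 1) from 0.891 (H2-DMa and H2-DMb2) to 0.999 (H2-Ab1 and H2-Eb1). Of 5541 further genes reaching 50 CPM in some class, those most like the members' mean were Plekho1 (r = 0.975), Ltc4s (0.971), Ccr1 (0.968), Spi1 (0.968) and B4galt6 (0.968). The points share libraries and include both myeloid and lymphoid classes. In WT cells Spi1 had 627 CPM in dendritic cells, 4.66 in CCR6-positive ILC3 and 0.659 in ILC2, and Plekho1 213, 13.2 and 1.32 CPM, the order seen for the members. Levels in Zfp36_KO ILC2 were 0.670 CPM for Spi1 and 1.61 CPM for Plekho1.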

How the data were processed

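Droplet 3′ single-cell libraries, 1 per genotype, were used. The authors deposited UMI counts per gene and cell for each library, made with Cell Ranger 3.1.0 on mm10 per the file headers and the submitters' processing notes. The annotation release is not given in the sources used here. The libraries held 3593 (WT) and 3522 (Zfp36_KO) barcodes with 24721524 and 27733804 UMIs. Cells with at least 500 genes and at most 10% mitochondrial UMIs were kept (3397 and 3339). Doublets called per library with Scrublet, run in scanpy 1.11.5, were removed (37 and 5). The 5 calls are 0.150% of the Zfp36_KO cells, so the caller cannot be taken to have worked there, and a removal of the 5% highest scores was added. Clusters came from 2000 variable genes, 30 components, 15 neighbours and Leiden (leidenalg 0.10.2, resolution 1).

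Classes were gated on summed marker UMIs, in order: macrophages and dendritic cells at least 5 (whichever list was higher), T cells 3, B and plasma cells 5, ILC2 4 (ILC3 list under 2), ILC3 2, split by Ccr6 and Ncr1 at 1 UMI, and ILC1/NK 4. Cells with both Ccr6 and Ncr1 stayed unassigned. The minimums were set on the marker counts of these data. At the minimum were 18 and 43 ILC2, 78 and 61 CCR6-positive, 52 and 103 CCR6-negative and 67 and 55 NCR-positive ILC3, and 9 and 14 ILC1/NK cells. UMIs were summed per class and library. Intervals are exact Poisson for CPM, exact Clopper-Pearson for shares and exact binomial for the split of a gene's UMIs between libraries (scipy 1.17.1), all at 95%. A ratio was read where the libraries together held 50 or more UMIs of the gene in the class. Thinning to 2000 UMIs left out 5 WT and 9 Zfp36_KO ILC2 and at most 11 cells of any other ILC class and library. On simulated ILC2 counts for 9301 genes the interval held the true value for 95.9% of unchanged genes. Of genes changed 2-fold, 94.5% were recovered in direction with an interval off 0. The simulated counts were independent draws, as the interval assumes. This checks the calculation only and cannot show how the interval behaves where UMIs are clumped in few cells.

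Genes were named by rule: all members, pathway genes with at least 50 UMIs and a 2-fold difference in ILC2 or an ILC3 class, plus Ctss, Rfx5 and H2-Oa, and the 5 genes most like the members. Values of those genes in other classes, and the cells with 1 chain alone, were chosen after the values were seen. Ifi30, Marchf1 and Marchf8 were not matched by symbol. One pathway gene that the rule names is not reported here. The members, lists and gates were chosen with earlier results of these data known. Promoters are RefSeq's (GRCm38.p6). They matched 5 of the 8 members. Alternatives tried were other gate minimums, clusters, doublet handling, equal weight per cell, thinning, centring on the median gene and leaving out cells by sex-linked transcripts, other-class markers or class II content.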

Additional observations from a re-analysis of the deposited data

Results flagged for a closer look

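With 1 library per genotype, the ratio of the same genes pointed in opposite directions in different classes; the difference was not tested. Summed over the 8 members, the log2 ratio of Zfp36_KO over WT was above 0 in ILC2 (1.15), NCR-positive ILC3 (1.12) and ILC1/NK cells (1.91), and below 0 in CCR6-positive ILC3 (-1.23), CCR6-negative ILC3 (-0.65), dendritic cells (-0.39) and macrophages (-0.37). Cd74 gave 0.98, 0.99 and 1.92 in the first 3 classes and -1.26 and -0.74 in CCR6-positive and CCR6-negative ILC3. H2-Aa gave 2.20 in ILC2, 1.46 in NCR-positive ILC3 and 2.56 in ILC1/NK cells, against -0.98 and -0.47 in the CCR6-positive and CCR6-negative classes. For H2-Ab1 the values were 1.29, 1.29 and 2.34 against -1.13 and -0.55. H2-Eb1 followed, with 1.61, 1.28 and 2.16 against -1.61 and -0.85.

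The opposite signs of ILC2 and CCR6-positive ILC3 held under every alternative run. Those of NCR-positive and CCR6-negative ILC3 did not, as the processing section below gives. The single Zfp36_KO NCR-positive cell with 381 class II UMIs held 0 C1qa and 0 Plet1 UMIs and 2 UMIs of dendritic markers.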

How the results depend on the processing

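No paired analysis was possible because each genotype has 1 library. The summed log2 ratio stayed above 0 in ILC2 and ILC1/NK cells and below 0 in CCR6-positive ILC3 and dendritic cells under all alternatives that gave a value. It turned in NCR-positive ILC3, CCR6-negative ILC3 and macrophages. The causes were not tested. CCR6-negative ILC3 have no cluster of their own, and too few dendritic cells lack all markers of other classes, so these gave no value. Depth limits H2-DMb2 and Ciita in lymphoid classes to a few UMIs, and mice within a pool cannot be separated.

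With 1 more UMI required of each marker list, the ratio was -1.56 in CCR6-positive and -0.90 in CCR6-negative ILC3, 1.47 in NCR-positive ILC3, 2.35 in ILC1/NK cells and -0.42 in macrophages. Clusters in place of gates gave 1.44 (ILC2), -0.89 (CCR6-positive), 0.25 (NCR-positive), 0.48 (ILC1/NK), -0.29 (dendritic cells) and -0.29 (macrophages). Keeping called doublets gave 0.86 in ILC2, and so did all barcodes (0.86), which gave -0.081 in macrophages. The ILC2 value as reported, 1.15 (1.06 to 1.24), follows removal of 37 WT but only 5 Zfp36_KO cells as doublets. With equal weight per cell the ratio was -0.52 (CCR6-negative), 0.44 (NCR-positive), 1.24 (ILC1/NK), -0.41 (dendritic cells) and -0.28 (macrophages), and with thinned cells 0.48, 1.0, -0.37 and -0.15 in the last 4 of these. Setting the median gene to 0 gave 0.98 (ILC2), -1.40 (CCR6-positive), -0.82 (CCR6-negative), -0.56 (dendritic cells) and -0.52 (macrophages). Without other-class markers it was 0.98 (ILC2), -2.06 (CCR6-positive), 0.19 (CCR6-negative), -0.56 (NCR-positive), 0.98 (ILC1/NK) and 0.20 (macrophages, 12 WT and 23 Zfp36_KO cells). Without the 5% richest cells it was 1.42, -1.61, -1.06, 0.64 and 1.35 in ILC2, CCR6-positive, CCR6-negative and NCR-positive ILC3 and ILC1/NK cells, -0.37 in dendritic cells and -0.31 in macrophages. Without Zfp36_KO cells with Y-linked UMIs it was -1.13 (CCR6-positive), -0.41 (dendritic cells) and -0.42 (macrophages).

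The next alternatives were chosen after seeing the data. Removing the 5% highest doublet scores gave 0.85 in NCR-positive ILC3 and -0.43 in macrophages. Without the richest cell of each library the values were 0.54 (NCR-positive), 1.68 (ILC1/NK) and -0.33 (macrophages). Only Zfp36_KO cells with Y-linked UMIs and no Xist gave 0.91 (ILC2), -1.89 (CCR6-positive), -0.45 (CCR6-negative), -0.21 (NCR-positive), 0.51 (ILC1/NK), -0.31 (dendritic cells) and -0.21 (macrophages).

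Of 520 values for 41 single-member results, 347 stayed within their counting interval and 155 moved outside it. A change of sign was counted apart only where the interval as reported lay off 0. There were 18 such changes. Without other-class markers these were, in CCR6-negative ILC3, H2-Aa 0.28, H2-Ab1 0.35, H2-Eb1 0.13 and Cd74 0.060, in NCR-positive ILC3 H2-Aa -1.14, H2-Eb1 -1.72 and Cd74 -0.77, and in macrophages H2-Aa 0.49 and Cd74 0.24. With Y-type cells only they were H2-Aa -0.48, H2-Eb1 -0.86 and Cd74 -0.32 in NCR-positive ILC3 and Cd74 -0.23 in ILC1/NK cells. Clusters gave Cd74 -0.19 in NCR-positive ILC3. Thinning gave H2-DMa 0.088 and H2-DMb2 -0.26 in dendritic cells and H2-Aa 0.031 in macrophages, and all barcodes gave H2-Aa 0.061 there.

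Counts of genes past the fold depend on its size and on the UMI minimum. Higher in Zfp36_KO, with 50 UMIs and 2-fold, then 200 UMIs, then 1.5-fold, were 272, 128 and 1444 genes in ILC2, 240, 40 and 1134 in CCR6-positive, 300, 40 and 1086 in CCR6-negative and 238, 41 and 1088 in NCR-positive ILC3, 203, 19 and 808 in ILC1/NK cells, 613, 187 and 1684 in dendritic cells and 550, 107 and 1487 in macrophages. Lower were, in the same order, 86, 35 and 301, then 68, 18 and 346, then 49, 11 and 245, then 71, 24 and 314, then 47, 12 and 235, then 193, 51 and 532, and last 158, 42 and 535.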
